A study of Caenorhabditis elegans with 10 samples.

Results

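The comparison described here sets the *clk-2* mutant of *Caenorhabditis elegans* directly against the *smg-1* and *smg-2* mutants, by RNA sequencing of whole young adults at 20°C. It uses 6 of the 10 libraries of the study, 2 of each mutant strain, and no library of the wild type N2 enters the contrast. Of 15106 genes with deposited values, 13869 had a mean of at least 10 normalized counts over the 8 libraries at 20°C and were tested. The libraries were chosen by their strain and temperature labels alone. The question is which transcripts separate a mutant of the upstream factor CLK-2 from mutants of the decay machinery itself.

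The *smg-1(rrr59)* and *smg-2(rrr60)* strains came from a chemical mutagenesis screen and carry the reporter R-1, in which a ubiquitous *dpy-30* promoter drives a GFP-histone H2B fusion followed by a short *ets-4* fragment. The *clk-2(qm37)* strain is a temperature-sensitive mutant, and the study lists it with the reporter R-2, which joins mCherry-histone H2B to the last *lin-41* exons and carries GFP-histone H2B in the same operon. Both reporters hold *unc-119(+)*, and N2 holds neither. Each strain gave 2 libraries at 20°C, and 1 more library each of N2 and *clk-2* followed 3 hours at 25°C, a step named heat shock in the labels. The study's text is not uniform on the temperature permissive for the *clk-2* mutant, and the name of the deposited *clk-2* columns matches no single allele. Mutation, reporter and strain history cannot be told apart in this contrast. The labels do not say that replicates were separate cultures, so the p-values measure only the spread between these libraries.

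Nonsense-mediated decay (NMD) removes mRNAs whose translation ends too early, and in doing so also sets the level of many normal transcripts and of transcribed pseudogenes. SMG-2 is the UPF1 helicase of the pathway, and SMG-1 is the kinase that phosphorylates it. CLK-2 is the worm TEL2, a factor known in yeast and mammals for the assembly and stability of SMG-1 and the related PIKK kinases, among them ATM, ATR, TOR and TRRAP, so a *clk-2* mutant can in principle affect DNA damage signalling, growth and chromatin as well as decay.

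The 6 libraries held 3523986 to 14209955 counted reads. The shallowest was the first *clk-2* library, in which 1 read was worth 2.59 normalized counts, against 0.643 in the second *clk-2* library and 0.671 to 1.06 in the *smg* libraries, so low *clk-2* values are less precise. Across genes, the replicates of *smg-1*, *smg-2* and *clk-2* correlated at 0.990, 0.992 and 0.979, and 5.05% of the genes differed more than 2-fold between the *clk-2* replicates, against 1.39% and 1.11% in the other mutants. The first principal component of the 6 libraries held 78.0% of the variance and separated *clk-2* from both *smg* mutants, and the second held 10.3%. Marker genes of muscle, pharynx, neurons, coelomocytes and germ line were found in every library, and none of those 42 genes was called in either direction.

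Both *clk-2* values lay above all 4 *smg* values for 3965 genes (28.6% of those tested) and below all of them for 4194 genes (30.2%). A gene was called when the groups did not overlap in this way, the log2 difference exceeded 1 in size and the adjusted p of limma (Benjamini-Hochberg) was under 0.05. By this rule 929 genes were higher in *clk-2* (6.70%) and 2165 were lower (15.6%), together 3094 genes (22.3%). The median size of the log2 difference was 1.60 among the higher and 1.55 among the lower genes, and 278 higher and 495 lower genes differed more than 4-fold. Leaving out the shallow *clk-2* library left 865 higher and 2265 lower genes, of which 773 and 2006 were the same as with it.

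**Figure D1:**
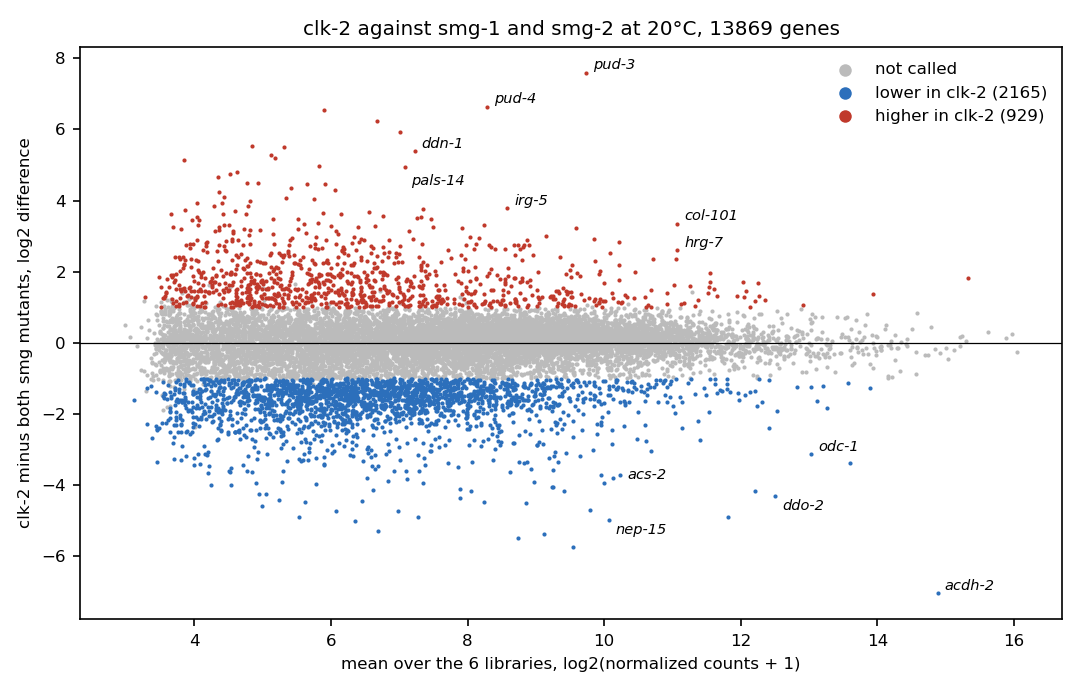
Each point is 1 of 13869 genes, with its mean over the 6 libraries on the horizontal axis, as log2(normalized counts + 1), and the log2 difference of *clk-2* from both *smg* mutants on the vertical axis. The 929 red and 2165 blue genes were called, and *pud-3* at 7.59 and *acdh-2* at -7.03 lie at the ends of the range.

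N2 was then read beside the called genes as a description. For 663 of the 929 higher genes both N2 libraries at 20°C lay nearer the *smg* mutants, for 31 nearer *clk-2*, and for 235 on different sides of the midpoint. The lower genes divided otherwise. For 1305 of the 2165 both N2 libraries lay nearer the *smg* mutants, so that *clk-2* stood apart on the low side, and for 686 both lay nearer *clk-2*, so that the *smg* mutants stood apart on the high side. In 181 of the lower genes *clk-2* was nevertheless above both N2 libraries, a position that 29.9% of all genes tested had, so that *clk-2* stood between N2 and the *smg* mutants.

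**Figure D2:**
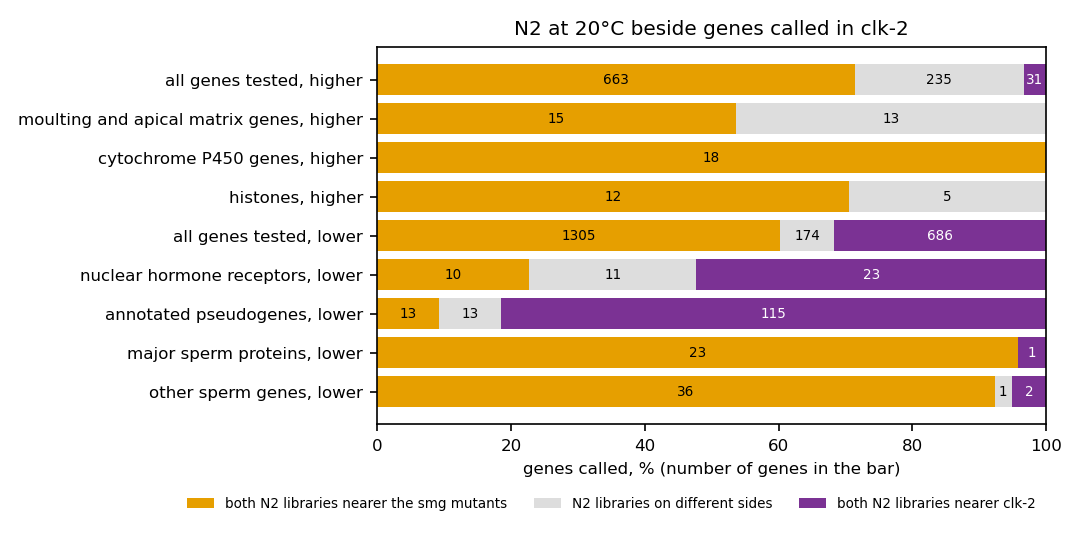
Bars give, in percent of the genes called in each group, where both N2 libraries at 20°C lay relative to the midpoint between *clk-2* and the *smg* mutants, with gene numbers in the bars. The called pseudogenes are mostly nearer *clk-2* (115 of 141), the called major sperm protein genes nearer the *smg* mutants (23 of 24).

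The genes of the pathway itself separated the strains little. None of the 10 NMD genes measured was called, and 4 lay above and 1 below all *smg* values, positions that 28.6% and 30.2% of all genes had. The mutated gene *smg-1* (WBGene00004879, chromosome I of WBcel235, 6900949 to 6913579) had 6206 and 5816 normalized counts in the *smg-1* mutant, 4933 and 4495 in *smg-2*, and 4248 and 3783 in *clk-2*. It was thus lower in *clk-2* than in every *smg* library, by a log2 difference of -0.41 (SE 0.087, adjusted p = 0.00243, limma), while both *clk-2* values stayed above the 2222 and 2022 of N2. The *smg-5* gene, whose product takes part in dephosphorylation of SMG-2, had 528 and 497 in *clk-2* and 451 to 546 in the *smg* mutants, a difference of 0.00 (SE 0.11), and N2 had 255 and 254. The groups overlapped for *smg-2*, at 942 and 1072 in *clk-2*, 996 and 967 in *smg-1*, and 1619.7 and 1673 in *smg-2* (log2 difference -0.34, SE 0.087, adjusted p = 0.00737, limma).

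Among the 13 genes of CLK-2, its co-chaperone partners and the PIKK kinases, none was called. Of them 4 (30.8%) lay above and 1 below all *smg* values, against 28.6% and 30.2% of all genes. The *clk-2* transcript itself had 497 and 670.0 normalized counts in its mutant and 604 to 676 in the *smg* mutants (log2 difference -0.18, SE 0.12, adjusted p = 0.25, limma). Its level overlapped with that in the *smg* mutants and gives no check of the label. The kinase-related gene *trr-1*, the worm TRRAP, had 5809 and 5807 in *clk-2* against 3319 to 3583 in the *smg* mutants. This difference of 0.75 was below the size of a call but exceeded the spread (SE 0.079, adjusted p = 1.8e-05, limma). The 26 DNA damage genes were not called either, and 15 of them (57.7%, against 28.6% of all genes) lay above and 2 (7.69%, against 30.2%) below all *smg* values, with a median difference of 0.22. Their examples are the nuclease gene *mre-11*, at 1822 and 1819 against 1246 to 1359, and the translesion polymerase gene *polh-1*, at 476 and 562 against 726 to 859.7.

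Sequence of the reporters could enter the counts of endogenous genes, among them *unc-119*, *lin-41* and *ets-4*. The rescue marker *unc-119* had 67.3 and 51.4 normalized counts in *clk-2* and 40.5 to 54.2 in the *smg* mutants, all above the 18.9 and 16.4 of N2. The 3 reporter-bearing strains thus stood apart from N2 for this gene. Neither *lin-41*, at 1506 and 1749.6 against 638 to 1013 (log2 difference 0.98, SE 0.11), nor *ets-4*, at 388 and 344 against 187 to 260.1 (0.72, SE 0.11), reached the size of a call. *lin-41* was called when the first *smg-1*, the second *smg-2* or the first *clk-2* library was left out.

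Transcripts that the annotation lists as pseudogenes were mostly lower in *clk-2* than in the *smg* mutants. Of 191 tested, 141 were lower in *clk-2* (73.8%, against 15.6% of all genes) and 2 were higher, and the median log2 difference was -1.69 against 0.01 over all genes. For 115 of the 141 both N2 libraries lay nearer *clk-2*. Both *clk-2* values were above both N2 values for 61 of the 191 pseudogenes and below them for 56, close to the shares of 29.9% and 28.9% over all genes. Relative to the mean of the *smg* libraries, the median log2 level of the pseudogenes was -1.70 and -1.73 in *clk-2* and -1.73 and -1.70 in N2. In the single libraries at 25°C it was -1.29 in *clk-2* and -1.85 in N2, a difference that has no replicate check. Of 809 genes higher in both *smg* mutants than in N2, 589 were called lower in *clk-2*. Both *clk-2* values were above both N2 values for 375 of the 809 and below them for 126, against 29.9% and 28.9% of all genes. Their median log2 difference of *clk-2* from N2 was 0.30. The list was chosen with these N2 values and the same 4 *smg* libraries. It took a log2 difference above 1 and an unadjusted p under 0.05 (limma) in each *smg* mutant. Neither the 589 calls nor the shares beside N2 are therefore independent of that choice. The study reports a modest rise of its NMD targets in *clk-2* at the lower temperature.

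The pseudogene WBGene00022219 (chromosome X, 59366 to 60750) had 4718 and 5733 normalized counts in *smg-1*, 4915 and 5852 in *smg-2*, 189 and 165 in *clk-2*, and 222 and 249.9 in N2. The *clk-2* and N2 values lay far below all *smg* values (log2 difference -4.90, SE 0.11, adjusted p = 7.08e-10, limma). WBGene00012588 (chromosome II, 12610313 to 12612357) had 672 and 674 in *smg-1*, 986 and 959.9 in *smg-2*, and 15.5 and 22.5 in *clk-2*, below the 35.8 and 46.1 of N2 as well. The study states that reads were counted on exons of protein-coding genes, and the class of pseudogene is here that of Ensembl release 115.

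Several protein-coding genes at the lower end of the list also had all *smg* values above those of N2 and *clk-2*, while *clk-2* varied in its place beside N2. The largest difference was that of *acdh-2*, an acyl-CoA dehydrogenase gene (WBGene00015894, chromosome II, 5544778 to 5547492). It had 56693 and 61899.6 normalized counts in *smg-1*, 36112 and 26504 in *smg-2*, 401 and 266 in *clk-2*, and 2581 and 2232 in N2. The *smg* mutants were thus above N2 and *clk-2* below it, with a log2 difference of -7.03 between the mutants (SE 0.16, adjusted p = 7.08e-10, limma).

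The neprilysin peptidase gene *nep-15* (chromosome X, 8372206 to 8374529) had 1303 to 1752 in the *smg* mutants, 49.2 and 49.5 in *clk-2*, and 3.51 and 18.7 in N2. Here *clk-2* stood between N2 and the *smg* mutants, and its difference from the latter was -4.97 (SE 0.11, adjusted p = 7.08e-10, limma). Ornithine decarboxylase, *odc-1*, the first enzyme of polyamine synthesis and a gene singled out after its values were seen, took the same middle place at 10619 to 12938, 1105 and 1652, and 198 and 284 (log2 difference -3.13, SE 0.14). *hrg-9*, of the haem-responsive family, did so at lower counts, with 165 to 224 in the *smg* mutants, 67.3 and 37.3 in *clk-2*, and 9.82 and 14.1 in N2.

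Other leading genes had *clk-2* close to N2. The F-box gene *fbxa-211*, of a family of ubiquitin ligase adaptors, had 969 to 1030.1 normalized counts in the *smg* mutants, 46.6 and 64.3 in *clk-2*, and 100.3 and 83.5 in N2 (log2 difference -4.16, SE 0.13). *ift-43*, a gene of intraflagellar transport in cilia, had 751 to 1111, 49.2 and 54, and 63.1 and 64 (-4.05, SE 0.12), and *nas-21*, an astacin metalloprotease gene, 280.1 to 399.7, 12.9 and 26.4, and 33 and 26.6 (-4.12, SE 0.23). In each of these 3 genes *clk-2* lay below both N2 values, and all *smg* values lay above them. *ddo-2* differed in that N2, at 1983 and 1804, lay between the *smg* mutants, at 6586 to 10154, and *clk-2*, at 461 and 395 (-4.30, SE 0.1).

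SR proteins bind exonic enhancers in pre-mRNA splicing, and transcripts of such genes are textbook targets of NMD. Of the 8 *rsp* genes 6 lay below and 1 above all *smg* values, against 30.2% and 28.6% of all genes, and 1 was called lower. This was *rsp-6*, with 732 and 1040.4 normalized counts in *clk-2*, 1730.2 to 2194 in the *smg* mutants, and 1029 and 875 in N2 (log2 difference -1.15, SE 0.13, adjusted p = 3.65e-05, limma). The call was lost without the first *clk-2* library, at -0.90. *rsp-1* had nearly the same pattern, with 903 and 1154 against 1694 to 2104, but missed the size of a call at -0.89, and *rsp-3* went the other way at 0.41.

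Of 79 cytosolic ribosomal protein genes 75 were not called and 4 were called lower (5.06%, against 15.6% of all genes). In the list 39 genes lay below all *smg* values (49.4%, against 30.2% of all genes), 2 above and 38 overlapped, with a median difference of -0.22. Over the list both *clk-2* values lay below both N2 values for 65 genes, against 28.9% of all genes. The median log2 difference from N2 was -0.39 in *clk-2* and -0.20 in the *smg* mutants. Among the genes called, *rpl-30*, *rpl-7A* and *rps-22* had N2 on the side of *clk-2*. *rps-22*, for example, had 4117 to 6120 normalized counts in the *smg* mutants, 1659 and 1725 in *clk-2*, and 2230.0 and 2203 in N2 (log2 difference -1.60, SE 0.084), and *rpl-30* had 10497 to 12556, 5568 and 4522, and 5532 and 5064 (-1.21, SE 0.1). The remaining *rpl-42* was low in all libraries, at 12.9 and 18.7 in *clk-2* and 47.9 to 72.8 in the *smg* mutants.

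Nuclear hormone receptors, the largest family of transcription factors in the worm, had 44 of 169 genes lower in *clk-2* (26.04%, against 15.6% of all genes) and 2 higher. In the list 94 lay below all *smg* values (55.6%, against 30.2% of all genes), and the median was -0.50. In 23 of the 44 N2 was on the side of *clk-2*, in 10 on that of the *smg* mutants, and in 11 split. *nhr-109* had 469 to 500.2 normalized counts in the *smg* mutants, 85.4 and 57.9 in *clk-2*, and 94.7 and 137 in N2 (log2 difference -2.77, SE 0.15). *nhr-80*, which acts in fat metabolism and germline-dependent longevity, was lower at 155 and 169.7 against 326 to 448 (-1.26, SE 0.11), and *nhr-49*, a regulator of fatty acid oxidation, overlapped at 678 and 775 against 702 to 744.

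**Figure D3:**
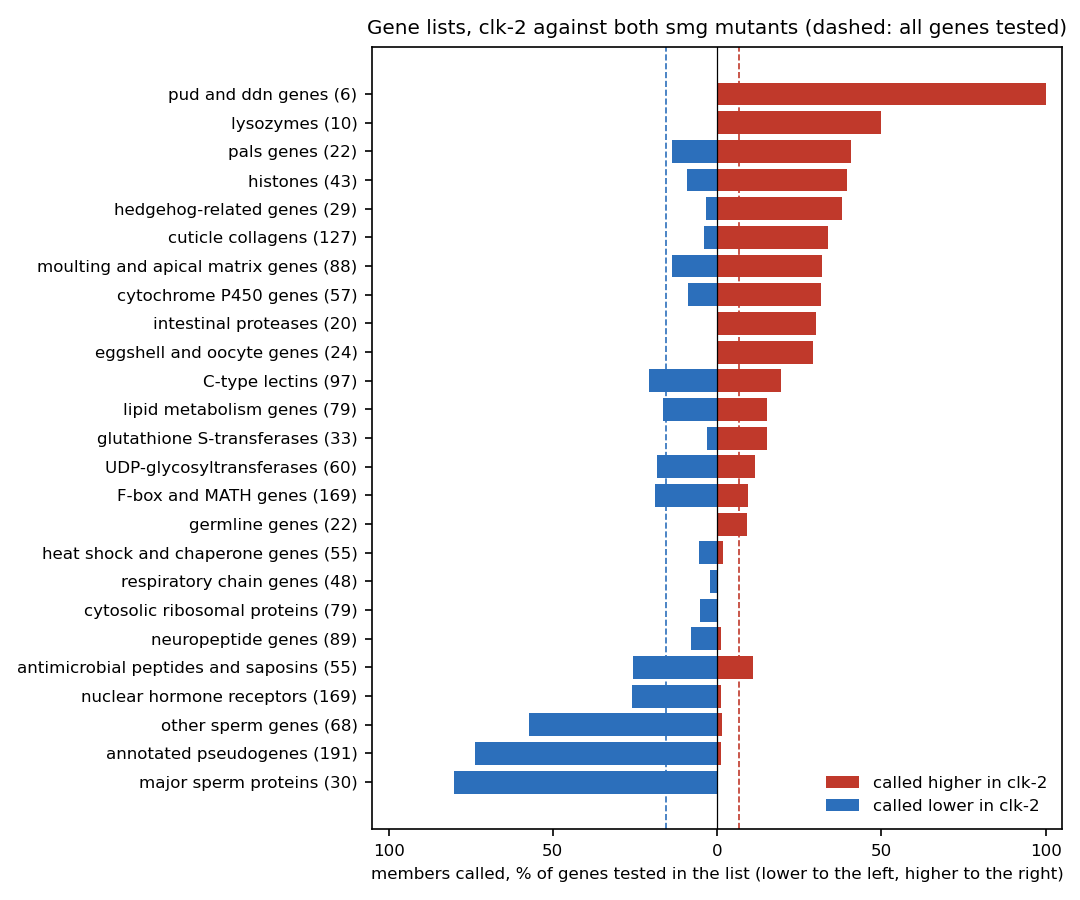
Bars give the percent of each list's tested genes (their number in brackets) that were called lower in *clk-2*, to the left, or higher, to the right, with the shares over all genes, 15.6% and 6.70%, as dashed lines. Pseudogenes and sperm genes reach farthest to the left, and *pud*, lysozyme and *pals* genes to the right.

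Genes expressed in sperm were lower in *clk-2* than in both *smg* mutants and in N2. The 30 major sperm protein genes encode the cytoskeletal and signalling protein of nematode sperm. Of them 24 were called lower (80.0%, against 15.6% of all genes), and 29 lay below all *smg* values (96.7%, against 30.2%). Their median was -1.21, with a range of -3.18 to -0.62. In 23 of the 24 N2 was on the *smg* side. Yet 27 of the 30 genes were also below both N2 values in all *smg* libraries. The 30 genes had a median log2 difference from N2 of -0.71 in the *smg* mutants and -1.93 in *clk-2*. Their near-identical copies are measured on unique positions only and single members are uncertain. *msp-142* had 331 and 372 normalized counts in *clk-2*, 589.9 and 717 in *smg-1*, 782 and 665 in *smg-2*, and 1075 and 1227 in N2. It missed the size of a call at -0.96 (SE 0.12, adjusted p = 5.21e-05, limma) although no value overlapped.

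Of 68 other sperm genes 39 were lower (57.4%, against 15.6% of all genes) and 1 higher, with a median of -1.20. All 9 sperm markers were called lower, and none was at 0 in any library. Their summed level was 1164 to 1289 normalized counts in *clk-2*, 2995 to 3507 in the *smg* mutants and 3554 to 3646 in N2. *gsp-3*, a sperm-specific PP1 phosphatase needed for sperm motility, had 171 and 148 in *clk-2*, 327 and 339 in *smg-1*, 526 and 464 in *smg-2*, and 646 and 566 in N2 (log2 difference -1.35, SE 0.12, adjusted p = 4.97e-06, limma). *spe-11*, a paternal factor that the egg needs after fertilization, had 670.4 and 569.7 against 1398 to 1635 in the *smg* mutants (-1.33, SE 0.1). *spe-9*, a sperm surface protein for gamete interaction, had 12.9 and 16.1 against 59.1 to 97.9 (-2.33, SE 0.23). *clk-2* was below N2 for each of these too, and in bulk tissue fewer sperm and less RNA per sperm cannot be told apart.

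Families with few members joined this pattern. The families of 5 or more tested genes with the largest shares called lower were *irld* (9 of 10), *ttbk* (7 of 8), *nsph* (6 of 7), *spe* (23 of 28), and *mpz* (4 of 5) together with *msp*. Of 355 such families, 15 had at least 50% of their genes called lower, while 15.6% of all genes were. *ttbk-8.2*, of the tau tubulin kinase family, had 176 and 211 normalized counts in *clk-2* and 501 to 670.0 in the *smg* mutants, with 759.7 and 696 in N2 (-1.55, SE 0.12). *irld-8*, which encodes a receptor L-domain protein, had 57 and 48.9 against 129 to 144, and 146 and 133 in N2 (-1.37, SE 0.16). *nsph-3.2*, of a nematode-specific peptide family, had 914 and 1057 against 2490.4 to 3283, and 4216 and 3660.4 in N2 (-1.51, SE 0.089). In all 3 genes the *smg* mutants and N2 stood together above *clk-2*.

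Some genes of the oocyte and eggshell were higher. Of 24 tested, 21 lay above all *smg* values (87.5%, against 28.6% of all genes). The median difference was 0.85, with 1.13 against *smg-1* and 0.61 against *smg-2*. Called higher in *clk-2* were 7 (29.2%, against 6.70% of all genes), and none was called lower. Without the first *clk-2* library the count was 15 and without the second it was 2, and every gene of the list had more in the second *clk-2* library than in the first. *oma-2*, which with *oma-1* governs oocyte maturation, had 1043 and 1304 normalized counts in *clk-2*, 385 and 344 in *smg-1*, 517 and 602 in *smg-2*, and 888 and 721 in N2 (log2 difference 1.37, SE 0.12, adjusted p = 4.31e-06, limma). The yolk receptor gene *rme-2* had 5757 and 8040.0 against 3055 to 4644, with 6731 and 4804 in N2, and was not called at 0.82 (SE 0.12).

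N2 was at or near the level of *clk-2* for many of these genes, and the median log2 difference of the *smg* mutants from N2 over the list was -0.60. The 9 oocyte markers summed to 30125 to 40063 normalized counts in *clk-2*, 16336 to 24155 in the *smg* mutants and 27912 to 35286 in N2, none was at 0, and 2 were called. The 6 vitellogenin genes, which encode yolk proteins, all overlapped between *clk-2* and the *smg* mutants, with a median of 0.27. Of 22 germline genes 2 were higher (9.09%, near the 6.70% of all genes). The 9 germ line markers summed to 18588 to 20595 in *clk-2* and 19471 to 23158 in the *smg* mutants, none was at 0, and their part in the oocyte and sperm results was not tested.

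**Figure D4:**
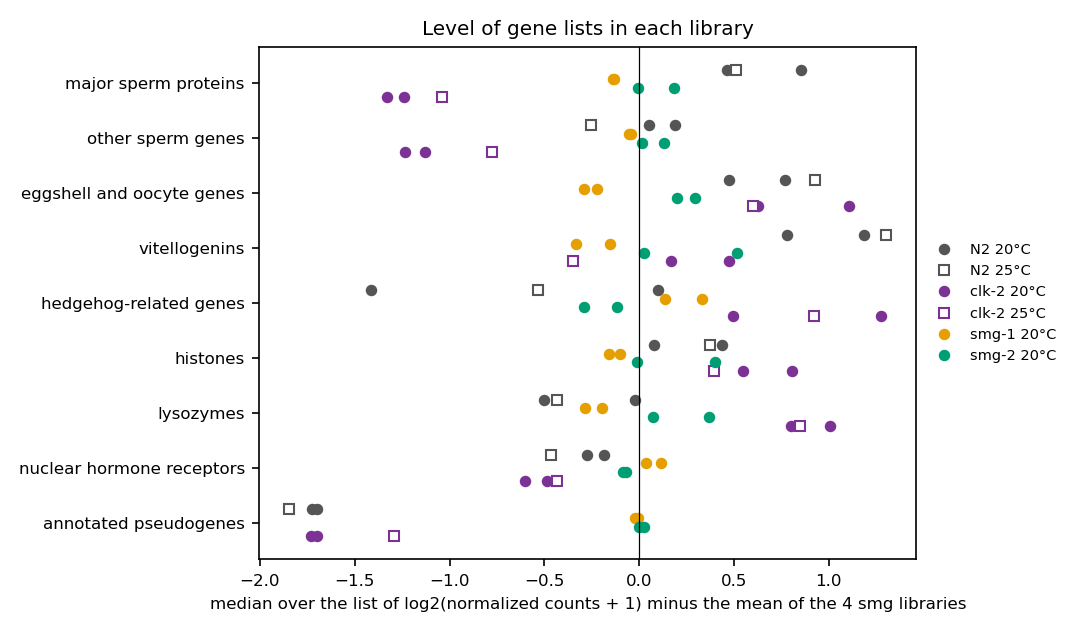
Each point is the median over a gene list, in 1 library, of log2(normalized counts + 1) minus the mean of the 4 *smg* libraries. Sperm lists in *clk-2* lie at -1.33 to -1.13 at 20°C, whereas pseudogenes lie at -1.73 to -1.70 in both *clk-2* and N2.

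The largest excess in *clk-2* was that of the *pud* genes, small-protein genes named for their rise in *daf-2* insulin receptor mutants. All 6 tested *pud* and *ddn* genes were called higher, against 6.70% of all genes. Among them were the 5 of the *pud* family, and the differences were 3.73 to 7.59. The 5 *pud* genes all lie on chromosome V between 2322038 and 2330930, so they may not vary independently. *pud-3* (WBGene00017501, chromosome V, 2324634 to 2325152) had 2136 and 2897 normalized counts in *clk-2*, 2.13 and 22.3 in *smg-1*, 12.7 and 27.1 in *smg-2*, and 126 and 164 in N2. Its difference was 7.59 (SE 0.6, adjusted p = 2.57e-06, limma). *pud-4* (chromosome V, 2326678 to 2327282) had 867 and 964, 3.19 to 17.6 and 61.7 in both N2 libraries (6.63, SE 0.53), and *ddn-1*, which is named for its lower level in *daf-16* mutants of *daf-2*, had 512 and 343, 6.85 to 13.4, and 26.7 and 42.2 (5.39, SE 0.27). The *smg* mutants were below N2 and *clk-2* above it in all 3 genes. The pseudocount of 1 understates ratios at such low *smg* values.

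The *pals* genes, several of which respond to intracellular pathogens and proteasome stress, split into sets with opposite behaviour. Of 22 tested, 9 were higher in *clk-2* (40.9%, against 6.70% of all genes) and 3 were lower (13.6%, near the 15.6% of all genes). *pals-14* had 505 and 257 normalized counts in *clk-2*, 8.72 to 13.8 in the *smg* mutants, and 8.42 and 14.1 in N2 (log2 difference 4.95, SE 0.31, adjusted p = 6.13e-07, limma). *pals-5*, the usual reporter of this response, had 62.1 and 64.3 against 0.671 to 2.13 and 0.781 to 1.4 in N2, and *pals-6* had 202 and 127 against 4.26 to 8.72. In these genes the *smg* mutants and N2 were low and the *clk-2* values lay above all of them.

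*pals-23*, in contrast, had 474 and 432 normalized counts in *clk-2*, 818 to 1278 in the *smg* mutants, and 457 and 388 in N2 (log2 difference -1.19, SE 0.1), and *pals-15* had 23.3 and 16.1 against 53 to 99.3 (-1.90, SE 0.27). *pals-18* was also lower, at -1.05, and was not called without the second *clk-2* library, at -0.91. In the 3 lower genes N2 was on the *clk-2* side, in 8 of the 9 higher genes on the *smg* side. The infection response gene *irg-5* was higher like the first set, at 1431 and 589 against 38.6 to 94.8 in the *smg* mutants and 116 and 117 in N2 (3.79, SE 0.37).

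**Figure D5:**
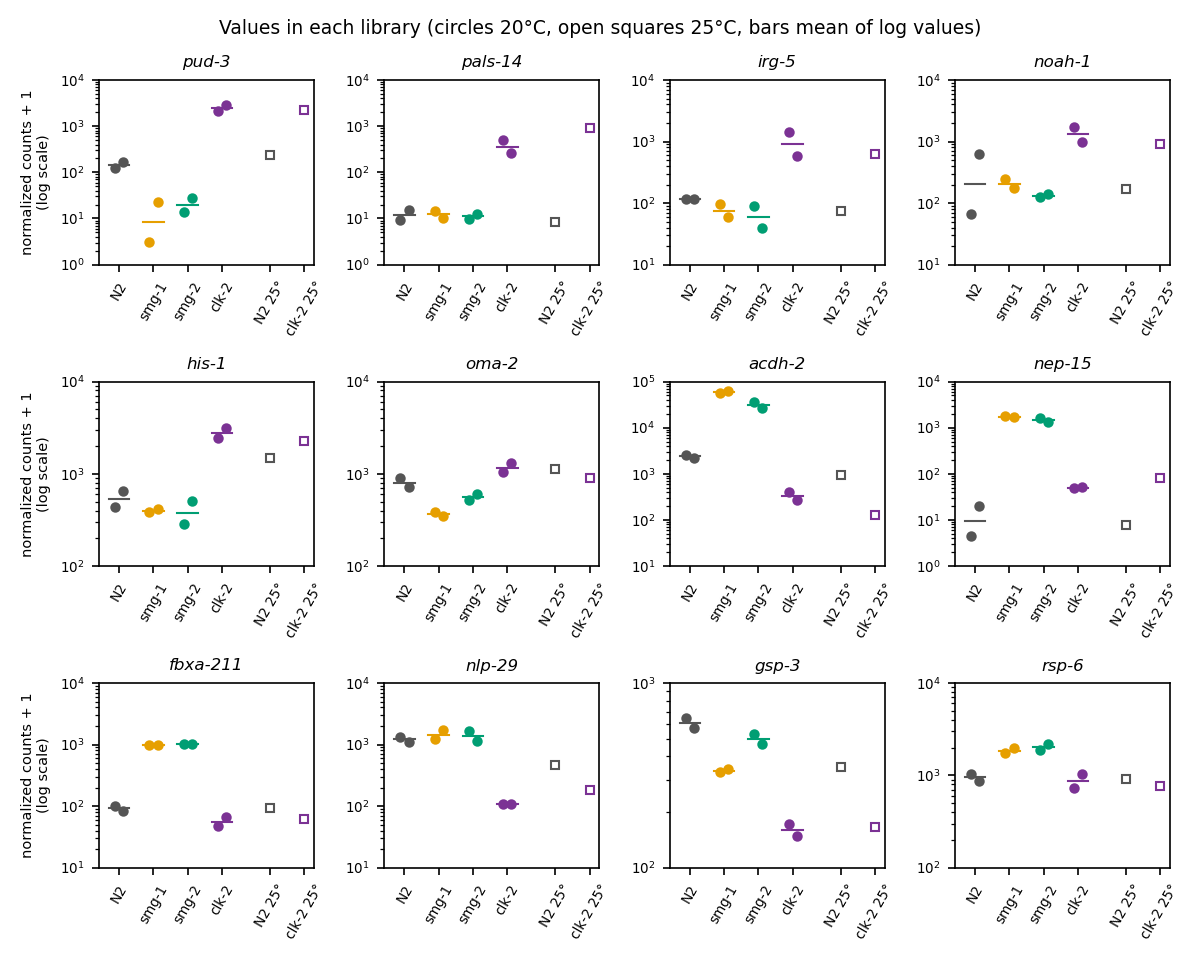
Normalized counts + 1 of 12 genes on a log scale in every library, with circles for libraries at 20°C, open squares for the single libraries at 25°C and bars for the mean of the log values. In the top row and in *his-1* and *oma-2* both *clk-2* values lie above all *smg* values, and in the other 6 genes below them.

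Genes of immunity and digestion in the intestine were partly higher. Of 10 lysozyme genes 5 were higher (50%, against 6.70% of all genes), all with N2 on the *smg* side, and none was lower. *lys-1* had 4908 and 5844 normalized counts in *clk-2*, 1959.7 to 2393 in the *smg* mutants, and 1488 and 1674 in N2 (log2 difference 1.32, SE 0.11), and *lys-2* had 1765 and 1038 against 273 to 632 (1.86, SE 0.28). The intestinal proteases had 6 of 20 higher (30%, against 6.70% of all genes) and none lower. Among them were *cpr-9*, a cathepsin B-like gene, at 8672 and 9289 against 2409.5 to 3279 (1.67, SE 0.085), and *asp-8*, an aspartyl protease gene, at 549 and 343 against 33.2 to 57.7 (3.27, SE 0.25).

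Lysosomal lipases and haem-responsive genes belonged to families with high shares. *lipl* and *cpr* each had 4 of 7 genes higher, as had *hrg*, where 2 were lower. Over all genes 6.70% were called higher and 15.6% lower. Of the 355 families 10 had at least 50% of their genes called higher. *hrg-7*, an aspartic protease that takes part in haem signalling between tissues, had 5286 and 4415 normalized counts in *clk-2*, 619 to 928 in the *smg* mutants, and 1603 and 1186 in N2 (2.60, SE 0.11). *lipl-1* had 158 and 149.8 against 6 to 31.5 (3.30, SE 0.27). The 9 intestine markers summed to 34216 to 36767 in *clk-2* and 24195 to 28241 in the *smg* mutants, none was at 0, and 1 was called higher. The part of this shift in the results on intestinal genes was not tested.

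C-type lectins had 19 of 97 genes higher (19.6%, against 6.70% of all genes) and 20 lower (20.6%, against 15.6%). *clec-61* had 67.3 and 67.5 normalized counts in *clk-2* and 0.677 to 3.43 in the *smg* mutants, whereas *clec-47* had 82.8 and 62.4 against 731 to 999, with 494 and 470.0 in N2 (log2 difference -3.58, SE 0.15). Of 55 antimicrobial peptide and saposin genes 14 were lower (25.45%, against 15.6% of all genes) and 6 higher (10.9%, against 6.70%). In this list 25 lay below all *smg* values (45.45%, against 30.2% of all genes) and 11 above (20%, against 28.6%). Its median difference was -0.65. *nlp-29*, an epidermal peptide gene induced by fungal infection and wounding, had 106 and 109 in *clk-2*, 1135 to 1704 in the *smg* mutants, and 1348 and 1092 in N2 (-3.71, SE 0.16, adjusted p = 4.45e-08, limma). *cnc-4*, a caenacin, had 33.6 and 50.8 against 368 to 1219 (-3.92, SE 0.17). These immune genes therefore did not share a direction.

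Enzymes of detoxification and fat metabolism were likewise mixed. Of 57 cytochrome P450 genes 18 were higher (31.6%, against 6.70% of all genes), all with N2 on the *smg* side, and 5 were lower (8.77%, against 15.6%). *cyp-35A1*, a xenobiotic-induced gene, had 124 and 43.7 normalized counts in *clk-2* and 1.06 to 3.43 in the *smg* mutants, and *cyp-35B2* had 150.1 and 80.4 against 4.74 to 11.7 (log2 difference 3.48, SE 0.38). *cyp-13B1* was lower, at 72.5 and 47.6 against 157 to 1808 (-3.35, SE 0.26), and differed between the *smg* mutants themselves, from 1418 and 1808 in *smg-1* to 336 and 157 in *smg-2*. Among 60 UDP-glycosyltransferase genes 7 were higher (11.7%) and 11 lower (18.3%, near the 15.6% of all genes). Among 33 glutathione S-transferase genes 5 were higher (15.15%) and 1 lower (3.03%).

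In the lipid list 12 of 79 genes were higher (15.2%, against 6.70% of all genes) and 13 lower (16.5%, near the 15.6% of all genes). The acyl-CoA synthetase gene *acs-2*, which is induced by fasting, had 129 and 120.2 normalized counts in *clk-2*, 1028 to 2481 in the *smg* mutants, and 1399 and 1384 in N2 (log2 difference -3.72, SE 0.15). The stearoyl-CoA desaturase genes went the other way, with *fat-7* at 802 and 475 against 66 to 384 (1.91, SE 0.31) and *fat-6* at 2744 and 2315 against 791 to 1564 (1.30, SE 0.15). For *fat-6* the difference from *smg-2* alone was 0.99 and was not called.

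Some genes of the cuticle and of moulting were higher in *clk-2*, with a large spread among replicates. Of 127 cuticle collagens 43 were higher (33.9%, against 6.70% of all genes), 5 lower and 79 not called. Of 88 moulting and apical matrix genes 28 were higher (31.8%), 12 lower and 48 not called, and the median over this list was 0.16, with medians of -0.30 to 0.62 over pairs of libraries. The lipocalin-related family *lpr*, secreted into the apical matrix, had 6 of 7 genes higher and *lpr-2* lower. *noah-1*, a zona pellucida-domain matrix protein, had 1749.8 and 992 normalized counts in *clk-2*, 241 and 175 in *smg-1*, 122.1 and 138 in *smg-2*, and 65.9 and 632 in N2 (log2 difference 3.00, SE 0.21, adjusted p = 9.53e-07, limma). *mlt-11*, a protease inhibitor needed for moulting, had 1475 and 750.4, against 99.3 to 206 in the *smg* mutants and 53.3 and 464 in N2 (2.90, SE 0.24). *lpr-3* had 531 and 275 against 15.4 to 60.7, and 3.51 and 148 in N2 (3.55, SE 0.48).

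The replicates of *clk-2* and of N2 were spread along the same genes. All 28 higher moulting and matrix genes had more in the first than in the second *clk-2* library, by a median of 0.64 log2 units, and more in the second than in the first N2 library, by 2.44. For the 43 collagens this held for 39 in each strain, with medians of 0.41 and 2.45. Over all genes tested the medians were 0.02 and 0.00. The position of N2 relative to *clk-2* and the *smg* mutants is thus not settled for these genes. Collagens called lower numbered 10 without the first *clk-2* library.

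Hedgehog-related genes, epidermal secreted proteins that in the worm take part in cuticle formation, were partly higher. Of 29 tested 11 were higher (37.9%, against 6.70% of all genes) and 1 lower, with a median of 0.79, and 6 of the 9 *wrt* genes were among them. Of the 11 higher genes, 10 had more in the first than in the second *clk-2* library, and all 11 had more in the second than in the first N2 library. The medians over the 11 were 0.46 and 2.655 log2 units, so the position of N2 is not settled for them either. *wrt-6* had 608 and 441 normalized counts in *clk-2*, 58.4 to 129 in the *smg* mutants, and 28.8 and 191 in N2 (log2 difference 2.48, SE 0.17). *wrt-4* had 624 and 684 against 98.6 to 226 (2.09, SE 0.14). The summed hypodermis markers were 3632 to 4369 in *clk-2* and 3037 to 3297 in the *smg* mutants, with 2 of 8 called higher and none at 0, and their part in the cuticle results was not tested. *bus* genes, which shape the surface that bacteria attach to, had 3 of 5 higher.

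A collagen that did not follow the N2 spread was *col-101* (chromosome IV, 325435 to 327020). It had 3836 and 6133 normalized counts in *clk-2*, 171 and 188 in *smg-1*, 1003 and 1601 in *smg-2*, and 2269 and 1116 in N2 (log2 difference 3.34, SE 0.2). *smg-1* and *smg-2* differed from each other more than either pair of replicates did, and *clk-2* lay above both.

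Histone genes were the remaining group with a high share. Of 43 tested 17 were higher (39.5%, against 6.70% of all genes) and 4 lower, with a median of 0.47. The histone H4 gene *his-1* had 2415 and 3138 normalized counts in *clk-2*, 282 to 507 in the *smg* mutants, and 439.8 and 645 in N2 (log2 difference 2.83, SE 0.19), and *his-18* had 2086 and 2238 against 156 to 399 (2.93, SE 0.27). Many histone genes are near-identical copies, so single members are uncertain, and the reporters of all 3 mutant strains contain histone H2B. N2 at 25°C was higher than at 20°C for *his-1*, at 1464, in a single library.

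In their calls, other groups stayed near the background or below it. Of 169 F-box and MATH genes 16 were higher and 32 lower, close to the 6.70% and 15.6% of all genes. Of 55 chaperone genes 1 was higher and 3 lower, of 48 respiratory chain genes 1 was lower, and of 89 neuropeptide genes 1 was higher and 7 lower, with 8 higher without the second *clk-2* library. Of 27 chemoreceptor genes 1 was higher and 5 lower, and of 10 antioxidant genes 1 was higher. Of 72 innexin and transthyretin-related genes 3 were called higher and 11 lower. In this last list 36 genes lay below all *smg* values (50%, against 30.2% of all genes) and 6 above (8.33%, against 28.6%). Its median difference was -0.33, with medians of -0.47 to -0.18 over pairs of libraries.

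The *clk-2* library at 25°C, which has no replicate and did not enter the contrast, was read beside the calls. Its value was above all 4 *smg* values for 884 of the 929 higher genes, a position that 37.5% of all genes tested had. It was below all of them for 2062 of the 2165 lower genes, against 39.3% of all genes. The genes were called against these same *smg* values, so the counts are no independent check of the calls. *pals-14* had 889.7 normalized counts in this library and 7.47 in N2 at 25°C, *pud-3* had 2286 and 242, and *gsp-3* had 164 and 349. *acdh-2* had 129 and 937. Each of these 4 genes was on the same side of the *smg* values as at 20°C.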

How the data were processed

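RNA of 10 whole-animal samples was sequenced after rRNA depletion. Per the study's methods and the submitters' processing notes, reads were mapped to WBcel235 with STAR 2.5.4a, unique reads overlapping protein-coding exons were counted, and DESeq2 was used. No strand setting is given in the sources used here, so overlapping and antisense genes, and genes with near-identical copies, are uncertain. The authors deposited 1 signal per gene and library, normalized read counts. These were whole reads divided by 1 size factor per library, and 100% of the values gave whole reads within 0.001. All 10 columns were assigned to samples. The table has 15106 gene IDs, of which 14967 were in the Ensembl annotation and 14720 had a symbol.

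The 6 mutant libraries at 20°C were fitted with the trend option of limma 3.58.1 (R 4.3.3) on log2(value + 1), which understates differences of low genes, with *clk-2* against the mean of *smg-1* and *smg-2*, and p-values adjusted by Benjamini-Hochberg over 13869 genes. The scripts were tested on simulated data. Alternatives were other pseudocounts and filters, quantile normalization, edgeR 4.0.16 and DESeq2 1.42.0 on recovered reads, all 8 libraries at 20°C, each *smg* mutant alone, unadjusted p-values, any size of difference, a replicate block, thinned reads and leaving out each library. Genes named were the smg genes and *clk-2*, the 10 largest and 10 lowest differences, overall and among named genes with a mean of at least 100, and leading or well-known members of lists and of symbol families of 5 or more genes, up to 6 families each way. A part of these is described. Members and lists were chosen with earlier results of these data known. No sequence was used.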

Additional observations from a re-analysis of the deposited data

How the results depend on the processing

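The counts of genes called higher and lower (929 and 2165) and of genes that did not overlap (3965 above, 4194 below) stayed within 1.5 times under both pseudocounts, no filter, quantile normalization, edgeR, DESeq2, all 8 libraries at 20°C, either *smg* mutant alone, unadjusted p-values and thinned reads. With a mean of at least 100, 329 genes were higher and 1039 lower, 2459 lay below all *smg* values, 225 higher genes had N2 on the *smg* side and 335 lower genes had it on the *clk-2* side. Fewer genes were tested there. With any size of difference these calls were 3096 and 3620, and the N2 counts 1280 and 1138. Quantile normalization gave 1137 higher and 1807 lower genes. Leaving out 1 library each gave 865 to 1095 higher and 2067 to 2265 lower genes. The labels give the strains equal replicate numbers but do not say that these mark a shared day or culture, and the deviations of equal numbers correlated at 0.04, 0.02 and -0.03, so the numbers were not taken as pairing. With the replicate block 927 genes were higher and 2166 lower. Of 190 named genes 19 lost their call under at least 1 alternative, 20 gained a call and none reversed. Of 35 list medians 20 moved by more than their spread over library pairs under at least 1 alternative, and 8 changed sign. The median of the *pals* genes went from -0.10 to 1.16 with no filter and was also above 0 with quantile normalization, *smg-2* alone, thinned reads or without the second *clk-2* library. With a mean of at least 100 the cytochrome P450 median went from 0.35 to -0.13 and that of neuropeptides from 0.11 to -0.09. That of UDP-glycosyltransferases went from -0.16 to 0.08 with *smg-2* alone, and that of F-box and MATH genes from -0.20 to 0.01 with quantile normalization. The medians of the CLK-2 partners, the antioxidant genes and the chaperones were within 0.02 of 0 and had no stable sign. In the shallow *clk-2* library 159 deposited genes had no read, which limits the precision of low genes.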

Other observations

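The calls were spread unevenly over the chromosomes. On chromosome X 9.89% of 1881 genes tested were higher in *clk-2* and 7.34% lower, the only nuclear chromosome of 6 on which higher genes were the larger group, whereas on chromosome I 3.86% were higher and 17.1% lower and on chromosome IV 5.76% and 19.6%. None of the 12 genes of the mitochondrial genome was called.

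Several genes with strong differences belong to no list. *parg-2*, a poly(ADP-ribose) glycohydrolase gene, and *pgp-6*, a P-glycoprotein transporter gene, were chosen after their values were seen. *parg-2* had 77.7 and 51.4 normalized counts in *clk-2*, 454 to 935 in the *smg* mutants, and 1029.8 and 997 in N2 (log2 difference -3.33, SE 0.18). *pgp-6* had 683 and 449.5 against 3264 to 4980.4, with 4958 and 4515 in N2 (-2.74, SE 0.17). At 20°C only *clk-2* was low in both genes, while the single N2 library at 25°C was also below all *smg* values, at 154 for *parg-2* and 1464 for *pgp-6*, with 111 and 606 in *clk-2* at 25°C. The cyclic nucleotide-gated channel gene *cng-1*, at 62.1 and 43.7 against 707 to 991, had N2 between at 217 and 230.3 (-4.04, SE 0.16).

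Among chaperone genes, *hsp-70*, which heat induces, was lower in *clk-2* at 18.1 and 32.8 normalized counts against 65.1 to 79.7 in the *smg* mutants (log2 difference -1.50, SE 0.25), and the single libraries at 25°C had 161 in *clk-2* and 306 in N2. The small heat shock gene *hsp-12.6* was higher, at 15.5 and 29.6 against 5.14 to 6.04 (1.80, SE 0.4), and N2, at 20.3 and 13.3, was on the *clk-2* side. The most strongly lower gene without a family name, C45B2.8, had 677 to 1715 in the *smg* mutants, 23.3 and 14.8 in *clk-2*, and 5.61 and 25 in N2 (-5.75, SE 0.23).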
